A study of Xenopus laevis with 4 samples.

Results

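Among 31179 genes counted in 4 single-cell libraries of Xenopus laevis ectoderm, 22 genes were high in a single library, that of the nuclear transfer (NT) embryos of experiment 2. They were chosen by their summed level in each library. Each held at least 10 unique molecular identifiers (UMIs, tags that count a transcript molecule once) per 1000000 UMIs of that library (CPM), and its CPM plus 0.5 was at least 4 times that of every other library. The log2 ratio of NT over control in experiment 1 was at most 0.8. The rule used these library levels, so the levels are described here without a test. The rule did not look at single cells. Its sums can still be carried by few cells with many UMIs, so an uneven spread over cells can come in part with the choice.

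Ectodermal explants were taken at gastrula stage 12 in 2 experiments. The libraries IVF1 and IVF2 came from in vitro fertilized (IVF) embryos, and NT1 and NT2 came from embryos made by moving endoderm nuclei of neurula donors into enucleated eggs. Only NT embryos that looked like IVF embryos at that stage had been taken, and each library pooled 5 embryos, so a cell carries no record of its embryo. IVF1 had 566 deposited cells with a median of 27266.5 UMIs, NT1 had 514 with 23346, IVF2 had 1275 with 44371 and NT2 had 1050 with 45100.5. No cell barcode was shared between libraries (0 in each). With 1 library per condition in each experiment, what sets NT2 apart as a library, as the nuclear transfer of experiment 2 and as an embryo pool cannot be told apart. IVF2 belongs to the same experiment, and the rule itself required these genes to be lower in it than in NT2.

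At gastrula stages the ectoderm is the outer germ layer, which forms epidermis and neural tissue, and it has a superficial and a deep layer of cells. In somatic nuclear transfer the egg has to silence the program of the donor nucleus and start that of the embryo, and transcripts of the donor cell type can persist, which is called transcriptional memory. The genome of X. laevis arose by joining of ancestral genomes, so that many genes have copies on a long (L) and a short (S) chromosome. The deposited tables name genes by gene model identifiers such as Xelaev18005470m.g. The gene name table used as reference matched 0 of them, so no gene is given a symbol or a role here and the ectoderm label could not be checked against marker genes.

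The 22 genes ranged from 165 to 10.8 CPM in NT2 and together took 0.0841% of its UMIs, against 0.00844% in IVF1, 0.00846% in NT1 and 0.00926% in IVF2. They were 0.282% of the 7808 genes with at least 10 CPM in NT2. When the same rule was applied to each other library, with the limit taken in the other experiment, it returned 0 genes for IVF1, 1 for NT1 and 40 for IVF2. A set of this kind was thus found in both libraries of experiment 2, and it was larger in IVF2 than in NT2.

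**Figure D1:**
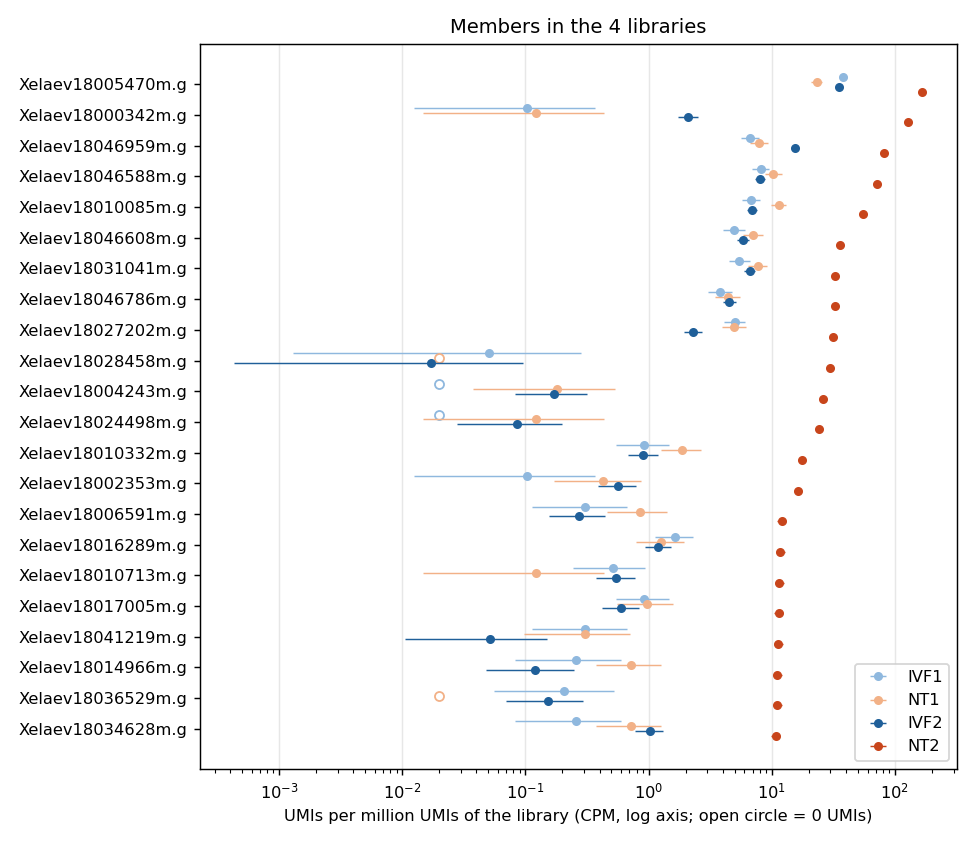
CPM of each of the 22 genes (rows) in the 4 libraries (colours) on a log axis, with 95% exact Poisson intervals that cover counting error only; open circles mark 0 UMIs and have no place on the scale. NT2 lies to the right of the other libraries in every row, from 165 CPM at the top to 10.8 CPM at the bottom.

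The most abundant was Xelaev18005470m.g, at 37.9 CPM in IVF1, 23.2 CPM in NT1, 35.2 CPM in IVF2 and 165 CPM in NT2. NT2 stood apart from the other 3, which lay between 23.2 and 37.9 CPM. Xelaev18000342m.g had 2 UMIs in IVF1, 2 UMIs in NT1, 2.10 CPM in IVF2 and 129 CPM in NT2. Its ratio of NT2 over IVF2 was 61.3, with a counting interval of 51.3 to 73.9. These 2 genes held 35.0% of all UMIs of the 22 genes in NT2.

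Xelaev18046959m.g had 6.69 CPM in IVF1, 7.92 CPM in NT1, 15.4 CPM in IVF2 and 81.9 CPM in NT2. Xelaev18046588m.g had 8.17, 10.3, 8.04 and 72.1 CPM in the same order. Like these, Xelaev18010085m.g, Xelaev18046608m.g, Xelaev18031041m.g, Xelaev18046786m.g and Xelaev18027202m.g were present at 2.30 to 11.4 CPM in the other libraries and at 31.7 to 55.1 CPM in NT2. These genes were thus detected in all 4 libraries and were higher in NT2.

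Of the 22 genes, 10 stayed under 1 CPM in all 3 other libraries. Xelaev18028458m.g had 1492 UMIs in NT2, where it reached 30.0 CPM, and 1 in IVF1, 0 in NT1 and 1 in IVF2. Against the level that 3 UMIs would make in NT1, this was at least 165-fold higher. Xelaev18004243m.g had 1292 UMIs in NT2 (25.9 CPM) against 0 in IVF1, 3 in NT1 and 10 in IVF2. Xelaev18024498m.g had 1206 (24.2 CPM) against 0, 2 and 5. Both were at least 158-fold above the level of 3 UMIs in IVF1. These 3 genes had at most 10 UMIs in any other library, while others of the 10 had up to 35.

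In experiment 1 the 22 genes had a median log2 ratio of NT1 over IVF1 of 0.27, against 0.01 over the genes with at least 10 CPM in NT2. In experiment 2 the median log2 ratio of NT2 over IVF2 was 3.52, against 0.12. The ratio in experiment 1 was above 0 for 15 genes and at or under 0 for 7. The share of all genes above 0 was not counted. Some of these ratios rest on few UMIs and give no direction, such as 2 in NT1 and 2 in IVF1 for Xelaev18000342m.g. The rule capped this ratio, so these values describe the genes that were let in.

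Just inside the 4-fold limit were Xelaev18031041m.g at 4.06 times the next library, Xelaev18005470m.g at 4.32 times and Xelaev18010085m.g at 4.66 times. Just outside it were Xelaev18009214m.g at 3.73 times, Xelaev18027791m.g at 3.68 times and Xelaev18036057m.g at 3.67 times, all with the pseudocount of 0.5. A further 8 genes passed the 4-fold limit in NT2 and were left out because NT1 was also above IVF1 by more than 0.8 on the log2 scale. The highest of these, chosen after its values were seen, was Xelaev18034816m.g with 13.5 CPM in IVF1, 26.8 CPM in NT1, 1.64 CPM in IVF2 and 138 CPM in NT2.

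UMI counts summed per library were also fitted over 18674 genes by the quasi-likelihood method of edgeR, blocked by experiment. The test called 0 genes higher in NT at an adjusted p of 0.05 (0% of the genes), and 550 at an unadjusted p of 0.05 (2.95%). Of the 22 genes, 18 passed edgeR's filter on low counts, which asks for counts in more than a single library, and 14 of them had an unadjusted p under 0.05. DESeq2 called 39 genes higher (0.236%), 6 of them from the 22. The contrast shares NT2 with the rule, so nothing is read from these counts.

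The next question was whether the transcripts sat in few cells of NT2 or in all of them. For each gene, the share of cells with at least 1 UMI was set against the share expected if its UMIs had been spread over cells in proportion to their depth. A ratio of 1 means an even spread. The 22 genes had ratios between 0.282 and 0.804 with a median of 0.530, while the median over all 7808 genes was 0.961. A ratio of at most 0.7 was found for 4.60% of those genes and for 20 of the 22. A gene held by few cells of NT2 can pass the rule through them, so part of this difference may come with the choice.

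The 105 cells with the most UMIs of a gene, 10% of the library, held between 42.2% and 94.2% of its UMIs for the 22 genes, with a median of 74.5%. Over all 7808 genes the median was 33.9%. This share also depends on how many UMIs a gene has, and the genes were not matched by level. By the ratios above none of the genes was spread evenly, and none was confined to a handful of cells. The fewest cells that together held 50% of the UMIs of a gene numbered 15, and the most numbered 135.

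**Figure D2:**
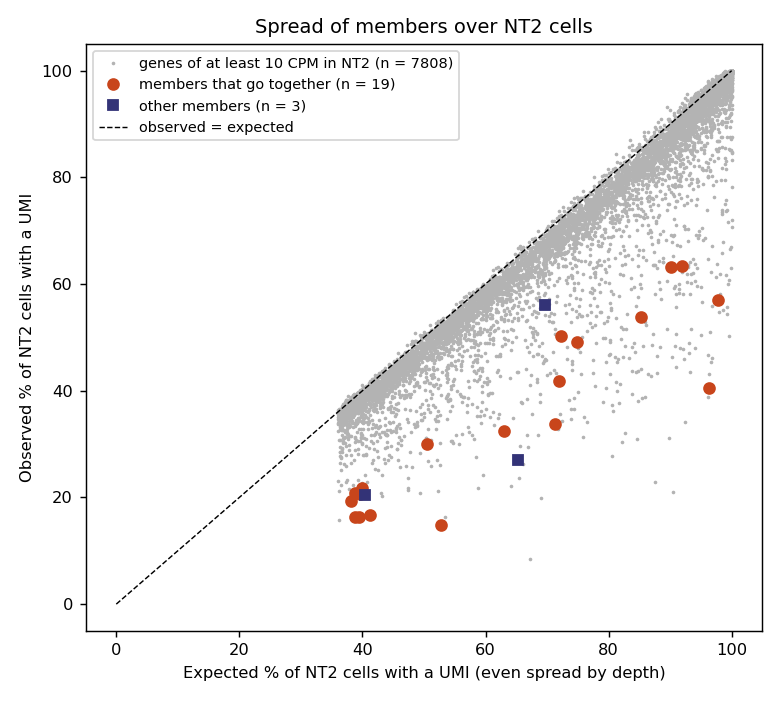
Observed percent of NT2 cells with a UMI (vertical axis) against the percent expected from an even spread by depth (horizontal axis); grey points are the 7808 genes with at least 10 CPM, circles the 19 of the 22 genes that varied together and squares the other 3. All 22 lie under the dashed line of equality, with ratios from 0.282 to 0.804, whereas the median gene has a ratio of 0.961.

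The narrowest was Xelaev18010332m.g, detected in 156 of 1050 NT2 cells (14.9%, 95% exact binomial interval 12.8 to 17.2) where 52.8% were expected. Its 874 UMIs were so unequal that 15 cells held 50% of them, and a single cell held 53. Xelaev18006591m.g (ratio 0.406), Xelaev18004243m.g (0.415), Xelaev18041219m.g (0.415) and Xelaev18000342m.g (0.420) followed. Xelaev18000342m.g was seen in 425 cells (40.5%, interval 37.5 to 43.5) where an even spread would have given 96.3%, and up to 195 of its UMIs were counted in a single cell.

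At the other end, Xelaev18028458m.g was detected in 588 cells (56.0%, interval 52.9 to 59.0) where 69.7% were expected, a ratio of 0.804. It was found in 1 of 566 IVF1 cells, 0 of 514 NT1 cells and 1 of 1275 IVF2 cells. The share in NT2 was between 41.7% and 70.1% in each of the clusters described below, except for a cluster of 22 cells where it was 13.6%. Cells with a UMI of this gene thus lay in every cluster of NT2, and in the other libraries there were 2. The next highest ratios belonged to Xelaev18046588m.g (0.701), Xelaev18031041m.g (0.696), Xelaev18046959m.g (0.690) and Xelaev18046608m.g (0.657), which were detected in 49.1% to 63.4% of NT2 cells and in 14.0% to 26.0% of the cells of the other libraries.

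The unequal spread was also present with each cell thinned to 20000 UMIs, which left 895 NT2 cells. Thinned, the median ratio was 0.619 and the median share of cells 21.3%, against 0.530 and 31.3% with all UMIs.

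To see which genes go together, pairs were correlated over NT2 cells (Pearson's r of the log-transformed UMIs per 10000) and joined while the mean correlation stayed at or above 0.2. A single group of 19 genes formed, and 3 genes remained outside it. Within the group the 171 pairs had a median r of 0.41 and a range of 0.10 to 0.69, and 160 pairs were above 0.2. The group was formed on these same correlations, and most of its genes met the rule only through a shared set of cells described below. These NT2 values are thus in part built in. In IVF1 and NT1, each of which had no UMI of 1 gene of the group, 153 pairs could be computed, with medians of 0.01 and -0.003 and with 13 and 4 pairs above 0.2. In IVF2 all 171 pairs had a median of 0.01, and 5 were above 0.2. The rule asked for a lower level of these genes in those libraries, and counts of most of them are sparse there. The low values are thus a description of those libraries at their depth. In NT2 thinned to 20000 UMIs the median was 0.35.

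**Figure D3:**
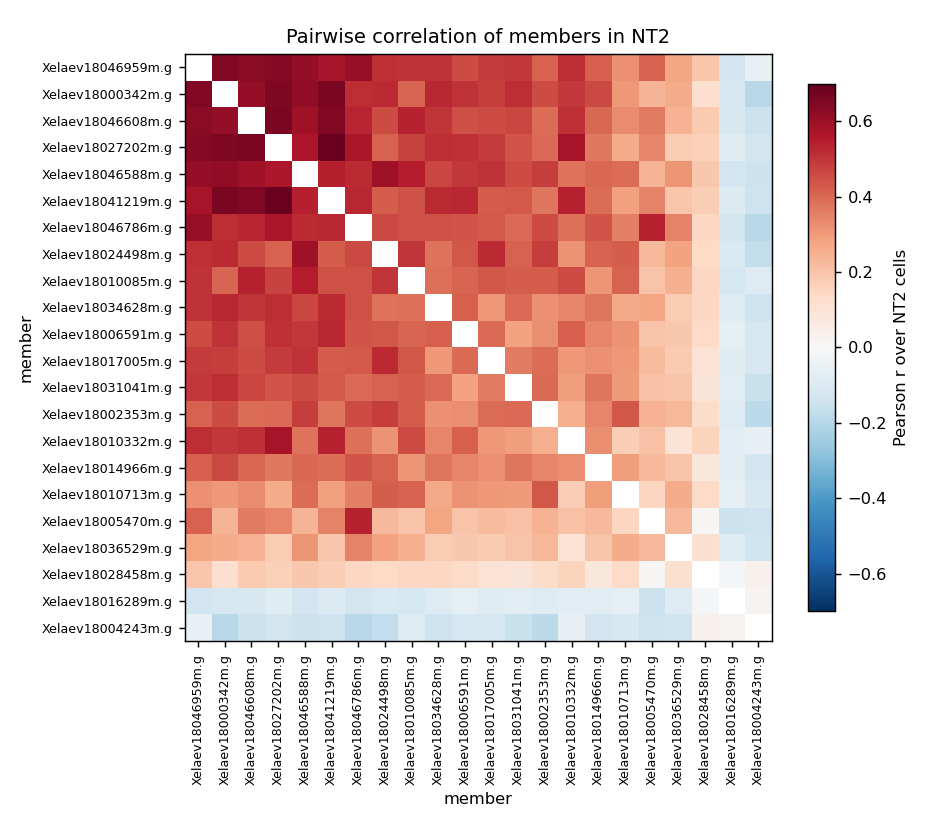
Pearson correlation over 1050 NT2 cells for every pair of the 22 genes, from blue (negative) to red (positive), ordered by group and by mean correlation with it. The 19 genes at the top form a block of positive values with a median of 0.41, and the 3 genes at the bottom have values of at most 0.194. The genes were grouped by these same values.

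The most alike were Xelaev18027202m.g and Xelaev18041219m.g (r = 0.69), Xelaev18046608m.g and Xelaev18027202m.g (0.66), and Xelaev18000342m.g and Xelaev18041219m.g (0.66). By mean correlation with the others, Xelaev18046959m.g (0.50) and Xelaev18000342m.g (0.49) stood at the core. The 2 loosest were Xelaev18036529m.g (0.23) and Xelaev18005470m.g (0.27), and both left the group when a mean correlation of 0.3 was asked for.

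Of the 3 genes outside, Xelaev18028458m.g, the widespread one, had a mean r of 0.13 with the group and joined it at a mean correlation of 0.1. Xelaev18004243m.g had a mean r of -0.14 with the group, down to -0.20 with Xelaev18000342m.g. Xelaev18016289m.g had a mean r of -0.10. These last genes did not vary with each other either (r = 0.02).

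A cell of NT2 thinned to 20000 UMIs held a median of 3 of the 19 genes and at most 17. At least 5 of them were found in 339 of 895 thinned NT2 cells (37.9%, interval 34.7 to 41.1), where an even spread of the same UMIs would have put that many into 98.0% of cells. Thinned alike, 2 of 384 IVF1 cells (0.521%), 5 of 311 NT1 cells (1.61%) and 10 of 1181 IVF2 cells (0.847%) held as many. An even spread would have given 0.379%, 0.560% and 0.606%. Cells with 0 of the genes made up 27.9% in IVF1, 28.3% in NT1 and 35.1% in IVF2. For these an even spread would have given 19.8%, 21.0% and 17.2%, so the genes were not evenly spread there either. At least 10 were found in 146 NT2 cells (16.3%), fewer than the 22.3% of an even spread, and in 0 cells of each other library. The rule asked for a lower level of each gene in the other libraries, so their fewer cells with many of the genes are built in by that choice. The NT2 cells ran without a gap from cells with none of the genes to cells with most of them.

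Cells of the 4 libraries were then clustered after integration, with the 22 genes left out, into 11 clusters numbered by size. Other genes that varied with the group were kept and could shape the clusters, so the clusters are not independent of it. Cluster 6 held 14.7% of NT2 cells (154) and 43.5% of the UMIs of the group, at 2301 CPM. Cluster 4 held 16.7% of the cells (175) and 28.2% of the UMIs, at 1243 CPM. The other clusters ranged from 149 CPM in cluster 2 to 608 CPM in cluster 10, which had only NT2 cells (22). In IVF2 the group reached 120 CPM in cluster 6 and 361 CPM in cluster 4.

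Cluster 6 had the highest level of 17 of the 19 genes. For the other 2, Xelaev18005470m.g and Xelaev18036529m.g, it was cluster 4. The share of all genes that were highest in cluster 6 was not computed. Most of the group met the rule only through a set of cells described below. Many of those cells lay in cluster 6, so the count of 17 is in part built in. Xelaev18005470m.g was at 617 CPM in cluster 4 of NT2 and at 314 CPM in the same cluster of IVF2, so its place was shared by the control. Xelaev18000342m.g was at 554 CPM in cluster 6 of NT2, with a UMI in 74.7% of its cells, and at 4.49 CPM in cluster 1, with a UMI in 14.1%. In cluster 6 of IVF2 it was at 20.3 CPM, with a UMI in 7.0% of 57 cells.

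In all 9 clusters with at least 10 cells of both IVF2 and NT2, the group was higher in NT2, by 2.57-fold in cluster 5 to 19.1-fold in cluster 6 (median 4.04). Each of 18 of the 22 genes was higher in NT2 in all 9, and the remaining 4 in 8. The rule chose the genes for a high level in NT2 over IVF2, so these counts are in part built in. The share of all genes higher in NT2 in each cluster was not computed. The difference of the group was largest in cluster 6 and was not limited to it. Free RNA in the droplets, which can add UMIs of a gene to cells that do not express it, was not estimated, and its part in the low levels of the other clusters was not tested.

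Outside the group, Xelaev18004243m.g and Xelaev18016289m.g lay elsewhere. Xelaev18004243m.g was highest in cluster 5 (76.1 CPM, 58.9% of its cells) and clusters 0 and 3 (50.4 and 46.5 CPM), and it was at 0 UMIs in cluster 10. Xelaev18016289m.g was highest in cluster 3 (54.6 CPM, 49.2% of cells). Xelaev18028458m.g was highest in cluster 6, as was most of the group. It ranged from 20.8 to 46.1 CPM over the clusters other than cluster 10, where it was at 3.24 CPM.

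In looking at which other genes varied with the group, many of those that fell as it rose carried neighbouring identifier numbers. This was followed up after seeing the data. The 5894 genes outside the 22 with a mean of at least 20 CPM and a maximum under 1000 CPM were divided into 48 blocks of 1000 consecutive numbers, and the share of the UMIs of each cell that fell in each block was taken on the log2 scale, relative to the median IVF2 cell. Neighbouring blocks had a median r of 0.16 over NT2 cells. In 2 stretches every neighbouring pair reached 0.75. Run A comprised numbers 18005000 to 18008999 (481 genes, r from 0.80 to 0.93) and run B numbers 18018000 to 18021999 (539 genes, r from 0.78 to 0.90). The highest value between any neighbouring blocks was 0.60 in IVF1, 0.72 in NT1 and 0.74 in IVF2. In NT1 and IVF2 that pair lay within run A, where a further neighbouring pair had 0.61 in NT1 and 0.53 in IVF2, so the blocks of run A varied together in part in those libraries.

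Run B separated the cells of NT2 into 2 sets. In 231 NT2 cells (22.0%) its share was at or under -0.3, with a median of -0.82 on the log2 scale. No such cell was found in the other libraries (0 of 566 in IVF1, 0 of 514 in NT1 and 0 of 1275 in IVF2), where the values lay between -0.21 and 0.19. Run A showed 4 levels among the remaining NT2 cells, with medians of -1.51 (55 cells, "lowest"), -0.44 (154 cells, "low"), 0.03 (268 cells, "middle") and 0.42 (342 cells, "high"). The limits between them, -0.9, -0.2 and 0.22, were set by eye, and 22 cells lay within 0.05 of a limit. Within 0.2 of the IVF2 median, run A was found in 562 of 566 IVF1 cells, 1232 of 1275 IVF2 cells and 371 of 514 NT1 cells, so it varied in NT1 too.

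**Figure D4:**
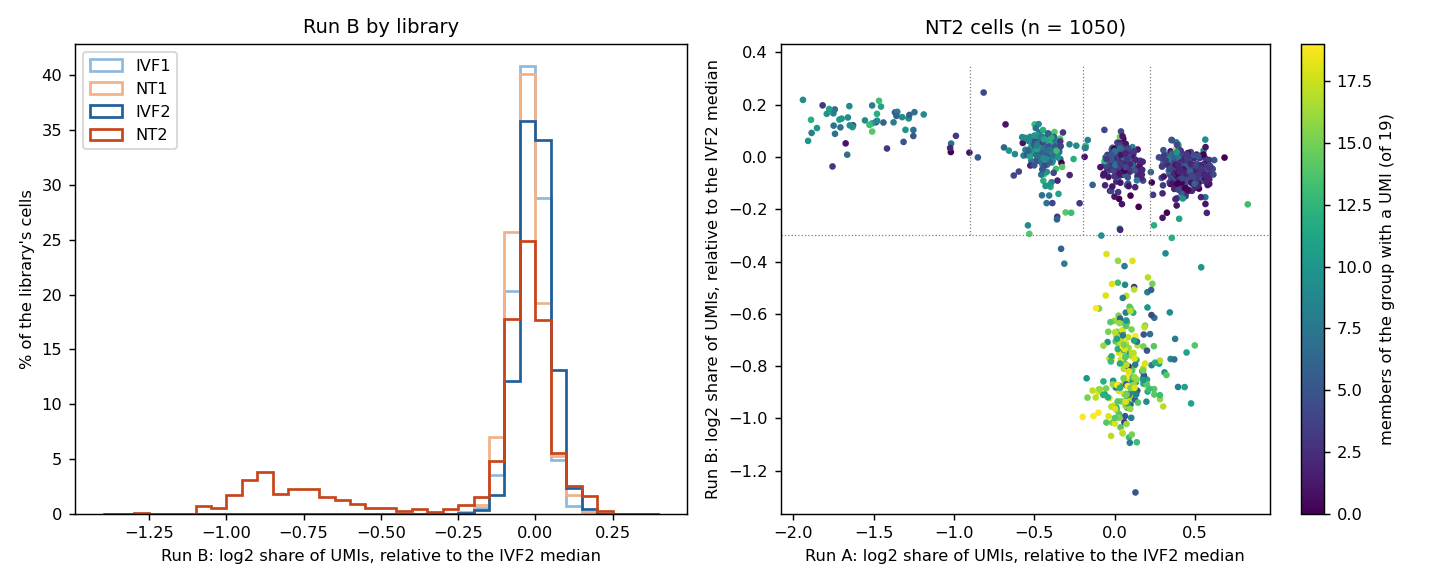
Left, percent of the cells of each library by the share of UMIs on run B (log2, relative to the median IVF2 cell). Right, each NT2 cell by run A (horizontal) and run B (vertical), coloured by how many of the 19 genes it had a UMI of, with dotted lines at the limits. A separate peak near -0.82 is present in NT2 alone, and its 231 cells held 69.4% of the UMIs of the group. Cells with many of the genes are more frequent there but occur outside it too, and some cells of the peak have few.

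The group of 19 genes differed in level between these sets. All of its genes but Xelaev18000342m.g met the rule only with the run B low cells included, so part of this comes with the choice. The group stood at 2277 CPM in the 231 cells with run B low, which were 22.0% of the cells and held 69.4% of its UMIs. It was at 876 CPM in cells with run A lowest and at 541 CPM in cells with run A low, and at 150 and 268 CPM in the middle and high cells. In run A lowest cells Xelaev18000342m.g alone made up 505 CPM. There Xelaev18005470m.g, Xelaev18006591m.g and Xelaev18010332m.g were lower than in both middle and high cells, and Xelaev18010085m.g was lower than in high cells. The rest of the group was higher there than in both. Thinned to 20000 UMIs, a cell with run B low held a median of 11 of the 19 genes, and 98.9% of these cells held at least 5. In the lowest and low cells the median was 6, and in the middle and high cells it was 2, with 5.17% and 10.4% of cells holding at least 5. Median depth also differed, at 56623 UMIs with run B low, 44987 in lowest, 39456 in low, 49540 in middle and 42686.5 in high cells.

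Run B low cells had the highest level of 18 of the 19 genes. Those 18 met the rule only with the run B low cells included, so this count is in part built in. The share of all genes that were highest in these cells was not computed. Xelaev18000342m.g was the exception, at 505 CPM in run A lowest cells, 387 CPM in run B low cells, 73.9 CPM in low cells and 5.59 and 7.43 CPM in middle and high cells. Xelaev18027202m.g was at 111 CPM in run B low cells and at 4.87 to 17.7 CPM in the others. Xelaev18041219m.g was at 43.1 CPM in run B low cells and at 0.717 to 4.15 CPM in the others. Xelaev18005470m.g was at 477 CPM in run B low cells, 118 CPM in high, 46.5 CPM in low and 37.8 CPM in middle cells, and fell to 2.53 CPM in lowest cells. The number of Xelaev18005470m.g, and that of Xelaev18006591m.g (0 UMIs in lowest cells), lie within run A. No member carried a number in run B.

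**Figure D5:**
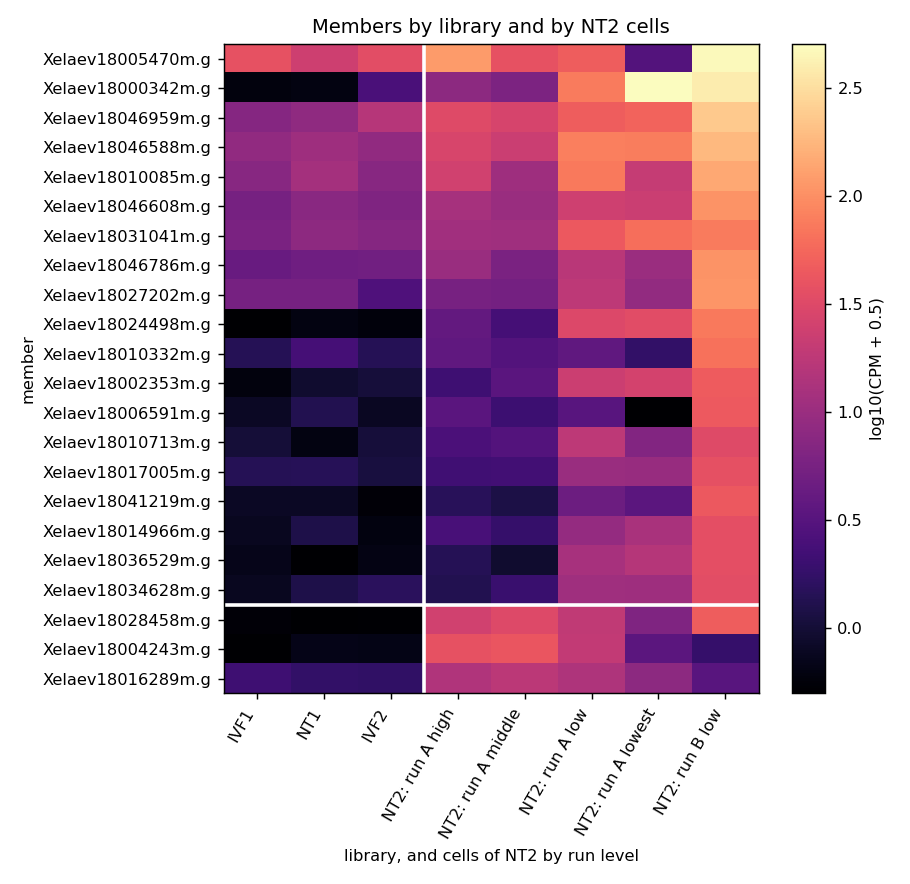
Level of each of the 22 genes (rows) as log10(CPM + 0.5) in IVF1, NT1 and IVF2 and in the 5 sets of NT2 cells, from run A high to run B low; the 19 genes of the group are above the white line. For 18 of the 19 the column of run B low cells is the highest, and for 2 of the 3 genes under the line, Xelaev18004243m.g and Xelaev18016289m.g, it is the lowest of the NT2 columns. Those 18 genes met the rule only with the run B low cells included.

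Outside the group the order was the opposite for 2 genes. Xelaev18004243m.g was at 40.7 and 37.9 CPM in middle and high cells, 19.2 CPM in low, 2.95 CPM in lowest and 1.36 CPM in run B low cells. Xelaev18016289m.g went from 16.8 CPM in middle cells to 2.81 CPM in run B low cells. Xelaev18028458m.g stayed high in both, at 47.2 CPM in run B low and 31.5 CPM in middle cells, and was lowest at 5.90 CPM in run A lowest cells.

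The run B low cells were not a single cluster. Of the 231, 101 were in cluster 6, 96 in cluster 4 and 30 in cluster 0, and all 22 cells of cluster 10 were run A lowest. Within cluster 6 the group was at 3191 CPM in run B low cells and 271 CPM in the 44 cells with neither run low. Within cluster 4 the values were 1824 CPM and 531 CPM (53 cells), of which Xelaev18005470m.g alone made up 827 and 419 CPM. Within cluster 0 they were 1228 CPM and 133 CPM (151 cells). Cells with run A low or lowest had 1605 CPM in cluster 6 (9 cells), 530 CPM in cluster 4 (26 cells) and 637 CPM in cluster 0 (47 cells). Of the value in cluster 6, Xelaev18000342m.g alone made up 905 CPM. In each of these clusters all 19 genes were higher in the run B low cells than in cells with neither run low. Most of them met the rule only through run B low cells, so this is in part built in. The share of all genes was not computed. Against cells with run A low or lowest, Xelaev18000342m.g (739 against 905 CPM) and Xelaev18014966m.g (49.9 against 51.4 CPM) were lower in cluster 6. Of the same gene, cells with run B low held different amounts by cluster: Xelaev18005470m.g was at 827 CPM in cluster 4 and 301 CPM in cluster 6, and Xelaev18000342m.g at 139 CPM in cluster 4 and 739 CPM in cluster 6.

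Among run B low cells the group was spread more evenly, with a median ratio of observed to expected cells of 0.843 and shares of cells between 42.0% and 95.2%. Its ratios ranged from 0.486 to 0.980, and the median over all genes in these cells was 0.961, so its spread was still uneven. The median ratio of the group was about as high in the 209 cells with run A low or lowest (0.830). It was 0.706 in cells with neither run low. Over all genes the median was 0.970 in each of these sets. In run B low cells the pairs of the group had a median r of 0.22 and a range of -0.26 to 0.72, and 88 of the 171 were above 0.2. There 14 of the 19 genes formed a group. With these cells left out, 13 genes formed a group in the remaining 819 cells (median r over the 171 pairs 0.18).

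When the rule was applied again with NT2 reduced to the 610 cells with neither run low, 3 of the 22 genes met it, Xelaev18028458m.g, Xelaev18004243m.g and Xelaev18016289m.g, the 3 outside the group. There the fold over the next library, with the pseudocount, was above 1 for 21 of the 22 genes, with a median of 1.85 and a range of 0.994 to 58.3. The genes were chosen for a high level in NT2, so folds above 1 are in part built in, and the share over all genes was not computed. With only the 231 run B low cells left out, 4 genes met the rule, the same 3 and Xelaev18000342m.g. The rest of the 22 met the rule only with those cells included, so their high level there comes in part with the choice. The genome positions of the runs, the amount of DNA in these cells and the embryo each cell came from were not analysed here, and their part in the result was not tested.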

How the data were processed

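The authors aligned 10x Genomics reads to the X. laevis genome with Cell Ranger and STAR, filtered cells, and deposited whole-number UMI counts per gene and cell with no normalization. The submitters' processing notes give Cell Ranger 2.2.0 for all libraries, while the study's methods add a later version for libraries of the newer of its 10x chemistries; which library had which chemistry is not given in the sources used here, and its part in the differences was not tested. CPM were computed here from counts summed over all cells of a library. Totals were 19577320 (IVF1), 16543235 (NT1), 58592836 (IVF2) and 49791903 (NT2) UMIs. Intervals are 95% exact Poisson or binomial and cover counting error only.

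The 22 genes, the lists and the rules were chosen with earlier results of these data known. Named are the 10 genes highest in NT2, the 5 lowest and 5 highest ratios of observed to expected cells, the 5 highest of the group, and 3 genes on each side of the 4-fold limit; other genes were named after their values were seen. Lists of marker genes, L and S partners, sequences and cell type names need gene names and were not used.

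Scrublet (scanpy 1.11.5) called 55 doublets (11 in NT2), kept except in an alternative. Clustering used Seurat 5.3.0 (20 dimensions, 20 neighbours, resolution 0.5), and tests used edgeR 4.0.16 and DESeq2 1.42.0 in R 4.3.3, with the experiment as a block because the study's methods control for it. The edgeR and DESeq2 tests were also run on simulated data. The blocks of identifier numbers and the limits on runs A and B were chosen after seeing the data.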

Additional observations from a re-analysis of the deposited data

Results flagged for a closer look

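For 7 of the 22 genes the log2 ratio of NT over IVF was above 0 in experiment 2 and under 0 in experiment 1. Over the genes with at least 10 CPM in NT2 the median ratio in experiment 1 was 0.006, so values under 0 are common. The share of all genes under 0 was not counted. The log2 ratio of NT1 over IVF1 was -0.70 for Xelaev18005470m.g (383 against 742 UMIs), -0.70 for Xelaev18010713m.g (2 against 10 UMIs), -0.49 for Xelaev18036529m.g (0 against 4 UMIs) and -0.27 for Xelaev18016289m.g (21 against 32 UMIs). It was -0.14 for Xelaev18028458m.g (0 UMIs against 1), -0.013 for Xelaev18027202m.g (82 against 98 UMIs) and -0.0076 for Xelaev18041219m.g (5 against 6 UMIs). These last values are too small to give a direction. The difference between experiments was not tested, since each experiment has 1 library per condition, and except for Xelaev18005470m.g and Xelaev18027202m.g the NT1 value rests on 21 UMIs or fewer. The log2 ratio of NT2 over IVF2 of the same genes, from 2.22 to 5.88, was set by the rule.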

How the results depend on the processing

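The 22 genes became 12 with a minimum of 20 CPM. They became 34 to 58 when IVF1, NT1 or IVF2 was left out (34 without IVF1, 39 without NT1, 58 without IVF2). Leaving out a library removes the 4-fold comparison with it. Without IVF1 or NT1 the limit of 0.8 on NT1 over IVF1 is removed as well. They became 4 with run B low cells left out, and with only cells with neither run low 4 genes met the rule, 3 of them among the 22; both settings were chosen after seeing the data. The mean of single-cell CPM gave 18 genes, 15 of them among the 22. Genes called between NT and IVF by edgeR went from 0 to 437 without a filter on low counts, and to 0 to 157 when a library was left out; DESeq2 called 109. Without the replicate block edgeR also called 0. The median share of cells was 21.3% thinned, 23.2% without run B low cells and 17.6% with neither run low, and the median ratio 0.619, 0.688 and 0.702. The group had 17 to 20 genes with another correlation limit, Spearman's rho, thinned cells or doublets left out, and 13 and 12 in the same reduced cells. The highest share of group UMIs relative to the share of cells in a cluster was 2.96, against 4.25 at resolution 0.8 and 3.68 with NT2 clustered alone. Depth limits the genes under 1 CPM outside NT2: 3 UMIs make 0.153 CPM in IVF1, 0.181 CPM in NT1 and 0.0512 CPM in IVF2.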

Other observations

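Genes outside the 22 that varied most with the group over NT2 cells were, by correlation with its mean, Xelaev18034816m.g (r = 0.87, 138 CPM in NT2), Xelaev18000010m.g (0.86, 73.1 CPM), Xelaev18027435m.g (0.83, 44.9 CPM) and Xelaev18037085m.g (0.82, 56.6 CPM). The first 3 of these are among the 8 genes that passed the 4-fold limit and were left out because NT1 was also above IVF1. Of these 8, 7 had an r between 0.65 and 0.87 with the group, and Xelaev18007331m.g, whose number lies in run A, had 0.01. Of the 50 genes with the lowest r, 34 lay in run B, which holds 8.50% of the genes with at least 10 CPM in NT2. Genes with a low r had led to the search for the runs, so this count is in part built in. In run B low cells, 518 of its 664 genes were under their level in cells with neither run low (78.0%, median log2 difference -0.69), against 46.0% of all other genes (median 0.05). In run A lowest cells, 597 of 648 genes of run A were lower (92.1%, median -1.69), against 37.9% of all others. These cells were picked by the summed share of the same genes, so most of them being lower is built in by that choice.

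Run A also had cells apart from the rest in other libraries. In NT1, 122 of 514 cells were above 0.2 and 8 were at or under -0.3. In IVF2, 42 of 1275 cells were above 0.2, and in IVF1 3 of 566 were. The correlation of run A with the mean of the group was -0.14 in NT2, 0.06 in IVF1, -0.06 in NT1 and -0.02 in IVF2, and that of run B with the group was -0.72 in NT2 and between -0.03 and 0.07 in the other libraries. Genes that fell as the group rose in NT2 had led to the search for the runs, so the NT2 value of run B is in part built in.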
